A study of Rattus norvegicus with 56 samples.

Results

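Celecoxib, a selective inhibitor of cyclooxygenase-2 (COX-2), was set against saline as a pretreatment of rats that never received lipopolysaccharide (LPS), the bacterial cell wall component used in this series as the inflammatory stimulus. The comparison held 8 of the 56 Affymetrix Rat Gene 2.1 ST arrays, chosen by the procedure and injection that the labels give: 5 of the CEL-III group (arrays 26 to 30), whose rats had subcutaneous celecoxib for 10 days, and 3 of the NaCl-III group (arrays 19, 20 and 48), whose rats had subcutaneous saline for the same time. On the next day every one of these rats received 100 µl of saline intraperitoneally and was decapitated 120 min later, so the saline injection was common to both groups. All were male Wistar rats 3 months old, the tissue was the medial hypothalamus with the paraventricular nucleus, and 1 array stands for 1 rat. The sources used here give no celecoxib dose. CEL-I (5 arrays) and NaCl-I (4 arrays) had the same pretreatments but 10 µg LPS on the last day. SC560-III (5 arrays) and INDOM-III (5 arrays) had SC-560 or indometacin in place of celecoxib before saline. CNT (5 arrays) were rats without any procedure. Comparisons over all 13 groups also hold SC560-I and INDOM-I, given those drugs before LPS, and the surgery groups. SHAM and VAGX rats had a sham operation or vagotomy and 30 days of recovery, with no 10-day subcutaneous pretreatment. Among them too, -I stands for LPS and -III for saline.

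Cyclooxygenases turn arachidonic acid into the precursor from which prostaglandins, prostacyclin and thromboxane are made. COX-1, encoded by Ptgs1, is present in most tissues, while COX-2, encoded by Ptgs2, is induced by inflammatory signals and is also found in some neurons of healthy brain. In the hypothalamus, prostaglandin E2 made through COX-2 drives fever and helps to switch on the neurons that make corticotropin-releasing hormone (Crh), which start the hormonal stress axis ending in glucocorticoid release from the adrenal gland. The comparison asks what 10 days of celecoxib left in this tissue when no inflammatory stimulus followed.

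No transcript differed between the celecoxib and saline groups after adjustment. In limma, 0 of 36685 transcript clusters (sets of probes to 1 transcribed region; 0.00%) passed an adjusted p of 0.05, and the smallest adjusted p was 0.9999. At an unadjusted p under 0.05 there were 1695 clusters (4.62%), 844 higher (2.30%) and 851 lower (2.32%) in CEL-III. The analysis of variance named in the study's methods, without shared variance information, also called 0, with 1715 at an unadjusted p under 0.05. The median standard error of a difference was 0.237 on the log2 scale, so the unadjusted 95% interval of a typical transcript reached 0.484 to either side. A difference of a typical transcript has to be larger than that to pass after adjustment over all clusters, so the count of 0 does not show that transcripts were alike. Each gene named below had an adjusted p of at least 0.9999 in limma for CEL-III minus NaCl-III, and the differences are given with their standard errors.

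The 8 arrays were alike as a whole. Pairs of CEL-III and NaCl-III arrays correlated at 0.953 to 0.971 over all clusters, CEL-III arrays among themselves at 0.946 to 0.973, and NaCl-III arrays among themselves at 0.962 to 0.967. Array medians lay between 4.04 and 4.22 (log2 intensity). The tissue label fitted its markers in part: oxytocin (Oxt) at a median of 10.05 and vasopressin (Avp) at 9.44 stood at the 99.1 and 98.4 percentiles of all clusters over the 8 arrays, and Trh, Npy, Gal and Pomc stood at the 80.3 to 88.7 percentiles, whereas Crh (4.11) and the paraventricular transcription factor Sim1 (4.13) were close to the middle of all clusters. The pituitary hormone genes Prl and Gh1 read 5.61 and 6.86 in CEL-III array 26. In the other CEL-III arrays Prl reached at most 3.19 and Gh1 at most 3.73, and in the NaCl-III arrays at most 3.47 and 3.78. All CEL-III arrays carry numbers under 41, where the order of groups in the titles starts again, and 1 NaCl-III array (48) lies above it.

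The gene with the smallest p among the 14557 genes with a single symbol was Fabp7, the brain fatty acid-binding protein, which carries long-chain polyunsaturated fatty acids in radial glia, astrocytes and the tanycytes that line the third ventricle. Its log2 intensity was 8.47, 8.37, 8.28, 8.26 and 8.64 in the CEL-III arrays, against 8.94, 9.41 and 9.18 in the NaCl-III arrays. All 5 CEL-III arrays lay below all 3 NaCl-III arrays, an arrangement that 1.62% of clusters showed in this direction and 1.97% in the other. The difference was -0.77 (SE 0.18, 95% interval -1.14 to -0.41, adjusted p = 0.9999 in limma), which is 1.71-fold lower, and it stayed between -0.89 and -0.66 over all 17 alternative fits, whose adjusted p ran between 0.704 and 1. In whole tissue, fewer cells that express a gene and less RNA per cell cannot be told apart.

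Fabp7 was also low in the celecoxib rats that received LPS, which share no array with the comparison above. The CEL-I arrays read 8.58, 8.49, 8.17, 8.41 and 8.31, against 8.98, 8.84, 8.61 and 9.20 in NaCl-I. They did not overlap but all but touched, at 8.575 in CEL-I and 8.605 in NaCl-I. The share of clusters without overlap was not counted for these groups. That difference was -0.51 (SE 0.17, adjusted p = 0.99 in limma). Averaged over both challenges the celecoxib difference was -0.64 (SE 0.12, adjusted p = 0.305), and its change between LPS and saline was 0.26 (SE 0.24, adjusted p = 0.999), so neither passed. Over the 13 groups of the series, CEL-I (8.39 ± 0.16, SD, n = 5) and CEL-III (8.40 ± 0.16, n = 5) had the lowest mean Fabp7 levels, and these neighbours in the order did not differ beyond their spread. VAGX-III, the vagotomised rats without LPS, came next (8.72 ± 0.18, n = 3), then INDOM-I (8.77 ± 0.40, n = 3) and NaCl-I (8.90 ± 0.25, n = 4), while SHAM-III (9.31 ± 0.18, n = 4) had the highest mean.

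Against the other drug groups without LPS and the untouched rats, Fabp7 in CEL-III stood at -0.77 from SC560-III (SE 0.16, adjusted p = 0.316), -0.63 from INDOM-III (SE 0.16, adjusted p = 0.23) and -0.79 from CNT (SE 0.15, adjusted p = 0.106). NaCl-III and CNT differed by -0.02 (SE 0.17). The single-array values were 8.99 to 9.54 in SC560-III, 8.67 to 9.43 in INDOM-III and 9.12 to 9.25 in CNT. All 18 arrays of these groups and NaCl-III lay above the highest CEL-III array (8.64). Of the surgery groups without LPS, SHAM-III read 9.05 to 9.45 and VAGX-III 8.65, 8.59 and 8.92, so VAGX-III array 14 lay below that CEL-III array, and over the whole series 41 of the 51 other arrays lay above it. The comparisons share the CEL-III arrays. In the comparison with CNT, Fabp7 passed the threshold under 2 of the alternatives, with an adjusted p of 0.0398 when limma's variance prior was robust and followed the intensity and 0.0401 when only clusters above the median intensity were tested. Across that comparison's other alternatives it did not pass.

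**Figure D1:**
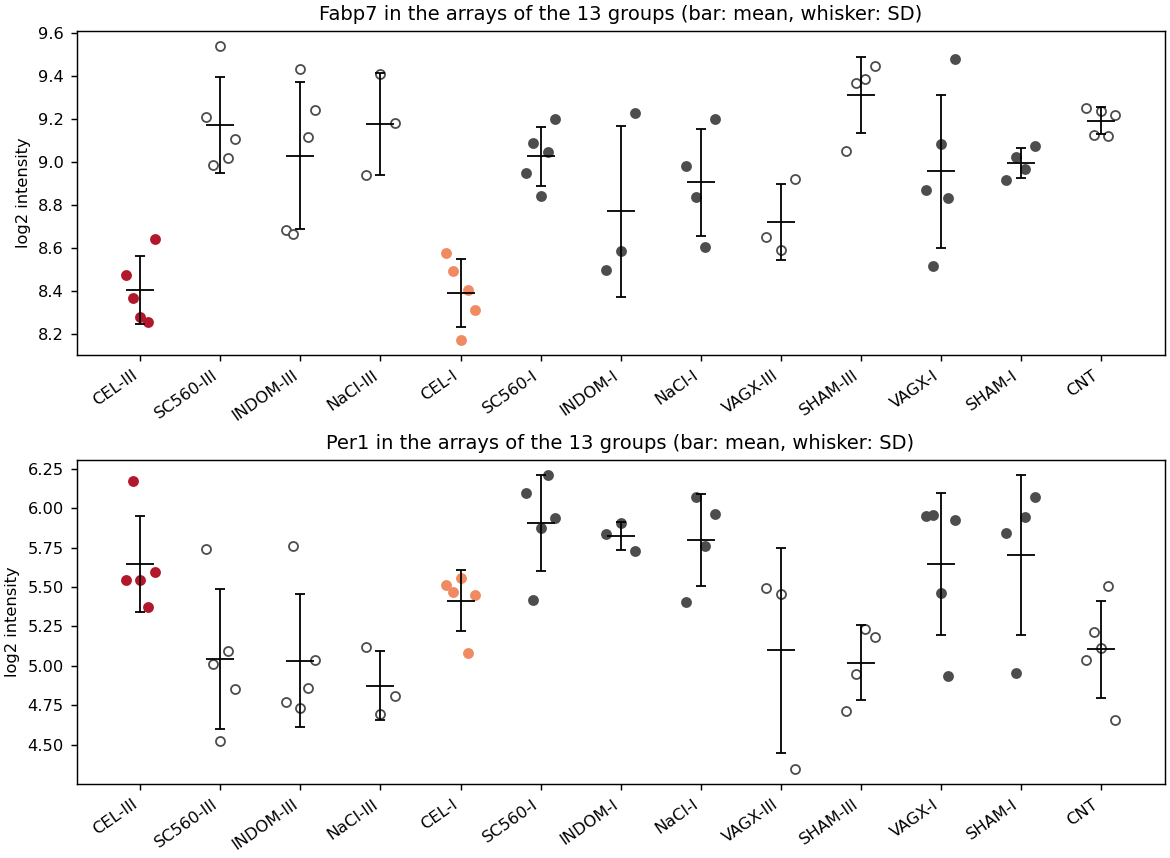
Log2 intensity of Fabp7 (top) and Per1 (bottom) in each array of the 13 groups, with a bar at the group mean and a whisker of 1 SD; celecoxib groups are in red and orange, LPS groups are filled and the other saline and untouched groups are open. The 5 CEL-III arrays and 5 CEL-I arrays of Fabp7 sit between 8.17 and 8.64, and Per1 in CEL-III (5.37 to 6.17) sits above NaCl-III (4.70 to 5.12).

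In mice, Fabp7 is a known target of Notch signalling, as is Hes1, the transcriptional repressor that stands for Notch activity in many tissues. Hes1 read 5.10, 5.17, 4.86, 4.74 and 4.97 in CEL-III and 5.41, 5.27 and 5.35 in NaCl-III, with no overlap (difference -0.37, SE 0.16). The 250 bases before the annotated start of both genes are given because their arrays did not overlap. They are 2 of the 11 measured members of the radial glia list, beside 1.31% of all single-symbol genes in this direction. Fabp7 is also the gene with the smallest p, and Notch activity was not measured. The sequences come from RefSeq on the build GRCr8. Capitals mark the core letters of the site bound by the Notch effector RBPJ (TGGGAA, searched on both strands).
Fabp7, chr20:37669356-37669605, plus strand: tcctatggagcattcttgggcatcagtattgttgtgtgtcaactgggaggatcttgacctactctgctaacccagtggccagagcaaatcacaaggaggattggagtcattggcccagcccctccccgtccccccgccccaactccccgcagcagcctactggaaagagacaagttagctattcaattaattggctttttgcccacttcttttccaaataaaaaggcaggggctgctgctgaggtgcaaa
Hes1, chr11:84213046-84213295, minus strand: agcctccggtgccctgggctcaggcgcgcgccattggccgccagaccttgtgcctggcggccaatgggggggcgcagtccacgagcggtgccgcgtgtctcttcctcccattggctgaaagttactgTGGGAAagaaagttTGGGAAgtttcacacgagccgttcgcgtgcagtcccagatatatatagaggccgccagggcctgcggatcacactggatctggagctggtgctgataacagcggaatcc
The letters occurred 2 times in the Hes1 window, starting 123 and 109 bases before the start, and 0 times in the Fabp7 window. They occurred in 21.6% of the 27457 windows of this length, and a match is a description of sequence only. Of the 11 measured genes of the radial glia list, which includes Fabp7, 4 were higher and 7 lower in CEL-III with a median difference of -0.12, beside 0.02 over all 14557 genes. Without NaCl-III array 20 this median was 0.0388, so its direction rests on that array. The 9 measured fatty acid-binding proteins had a median of 0.03, 6 of them higher and 3 lower, and Fabp7 was the member with a p under 0.05.

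The remaining genes named here are the 12 in either direction with the smallest p among those brighter than the middle cluster. Among the 12 higher in CEL-III, 9 had no overlap between groups. The 12 were picked by p in these same 8 arrays, so the count follows in part from the choice. It is not to be set against the 2.16% of all single-symbol genes. Qprt, Eva1a, Cecr2 and Pitx3 passed the brightness cut of 4.07 only through CEL-III. Their NaCl-III means were 3.795, 3.92, 3.799 and 3.866. Qprt, the enzyme that takes quinolinate from tryptophan breakdown into NAD synthesis, read 4.54, 4.31, 4.88, 5.36 and 4.47 in CEL-III against 3.35, 3.62 and 4.42 in NaCl-III (difference 0.92, SE 0.23). Only CEL-III array 27 lay within the saline range. Klhl21, an adaptor of the Cul3 ubiquitin ligase, differed by 0.66 (SE 0.16), Eva1a, a regulator of autophagy, by 0.87 (SE 0.22), Ttll1, part of a tubulin polyglutamylase, by 0.49 (SE 0.13), and Plce1, a phospholipase C, by 0.70 (SE 0.21). The set also held the mitochondrial histidyl-tRNA synthetase Hars2 (0.54), the splicing factor Zrsr2 (0.66), the chromatin factor Cecr2 (0.64), Secisbp2l (0.45) and the homeobox gene Pitx3 (0.71).

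Among the 12 lower in CEL-III, 7 had no overlap. These too were picked by p in the same 8 arrays, so the count is not to be set against the 1.31% of all single-symbol genes. Mmp14, a membrane-bound matrix metalloproteinase, read 3.84, 4.46, 4.85, 4.22 and 4.66 in CEL-III against 4.89, 6.08 and 5.26 in NaCl-III (difference -1.01, SE 0.30). The CEL-III mean of Mmp14 (4.41 ± 0.39, n = 5) was the lowest of the 13 groups. INDOM-I (4.54 ± 0.34, n = 3) and CEL-I (4.65 ± 0.16, n = 5) came next, and these neighbours in the order did not differ beyond their spread. With each array left out in turn, the Mmp14 difference between CEL-III and NaCl-III ran between -1.265 and -0.67. Micos10, a subunit of the complex that shapes mitochondrial cristae, read 8.12, 7.68, 7.43, 7.46 and 7.24 against 7.81, 9.06 and 8.89, with CEL-III array 26 inside the saline range (difference -0.999, SE 0.28). LOC100359505 differed by -0.76, the histone variant H2ab3 by -0.68 and Fam229b by -0.54. Anapc11, a subunit of the anaphase-promoting complex, differed by -0.50 and the transcriptional cofactor Lmo1 by -0.66. H2ab3 passed the brightness cut of 4.07 only through NaCl-III, with a CEL-III mean of 4.011. The other 4, Ndufs6-ps1 (-0.59), Rps17l2 (-0.87), Park7-ps2 (-0.57) and Rpl32l2 (-0.72), are annotated as pseudogenes or gene-like copies, and their probes may also bind the parent transcript.

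**Figure D2:**
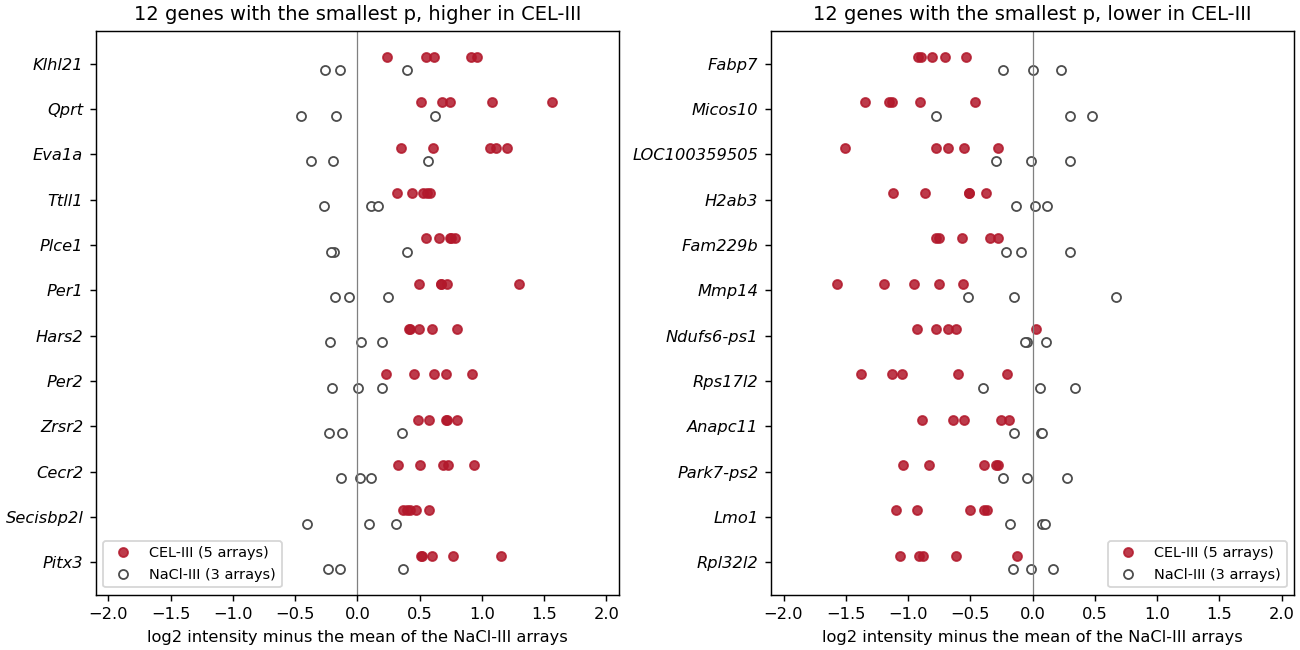
Log2 intensity minus the mean of the 3 NaCl-III arrays, for the 12 genes with the smallest p that were higher (left) and the 12 that were lower (right) in CEL-III; each filled point is 1 of 5 CEL-III arrays and each open point 1 of 3 NaCl-III arrays. The points do not overlap for 9 of the 12 higher genes and 7 of the 12 lower genes, and the genes were chosen by these same values.

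The same 24 genes were then read in the rats given LPS. Of the 12 higher genes, 6 were also higher in CEL-I than in NaCl-I, and of the 12 lower genes, 7 were also lower, with median differences of 0.01 and -0.04. Over all 14557 genes 51.5% had the same sign in both comparisons, and the differences correlated across genes at r = -0.0036 and rho = 0.0065. Genes are not independent replicates, and these coefficients carry no p. Between CEL-I and NaCl-I, 0 clusters (0.00%) passed and 1693 (4.61%) had an unadjusted p under 0.05. The mean over both challenges also gave 0 calls (1770 or 4.82% at an unadjusted p under 0.05, smallest adjusted p = 0.305 in limma), and so did the change of the celecoxib difference between LPS and saline (1570 or 4.28%, smallest adjusted p = 0.842).

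For the pathway that celecoxib acts on, neither cyclooxygenase gene stood apart. Ptgs2 read 4.83, 4.64, 4.79, 4.76 and 4.91 in CEL-III and 4.31, 5.03 and 4.10 in NaCl-III (difference 0.31, SE 0.34, 95% interval -0.38 to 1.00), so the CEL-III arrays lay inside the saline range. Without NaCl-III array 20 the Ptgs2 difference was 0.581 and without NaCl-III array 48 it was 0.115. Ptgs1 read 4.40, 4.57, 4.19, 4.74 and 4.22 against 4.35, 4.33 and 4.60 (difference 0.00, SE 0.22, 95% interval -0.45 to 0.46), also overlapping. Of the 10 measured genes of prostaglandin synthesis, 5 were higher and 5 lower, none with a p under 0.05, and the median difference was -0.0018. Pla2g4a, the cytosolic phospholipase that releases arachidonic acid, differed by 0.46 (SE 0.25), and by 0.222 without NaCl-III array 48. Ptgds, the prostaglandin D synthase of the meninges and choroid plexus, differed by -0.92 (SE 0.56), between -1.27 and -0.60 over the alternatives, with -0.60 found without NaCl-III array 20, and with 10.65 in CEL-III array 28 alone reaching the saline values of 9.91 to 11.19.

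Of the 8 measured prostanoid receptors, 2 were higher and 6 lower, with a median of -0.15 and none with a p under 0.05. The prostacyclin receptor Ptgir had the smallest p of them (difference -0.59, SE 0.30). The prostaglandin E2 receptor Ptger3, the one through which fever is produced in the preoptic area, differed by -0.08 (SE 0.39), and Ptger4 by 0.10 (SE 0.19). Among 7 genes of prostaglandin breakdown and transport 6 were higher, with a median of 0.16. In the lipoxygenase branch, which makes leukotrienes from the same fatty acid, Alox5 read 3.89, 4.03, 3.60, 3.21 and 3.92 in CEL-III against 4.17, 4.66 and 4.48 in NaCl-III (difference -0.70, SE 0.26). The other 7 measured genes of that list had a p above 0.05, and the list's median was 0.08. Cd36, a fatty acid receptor regulated by PPAR, differed by -0.94 (SE 0.26) at low intensity, 2.18 to 3.06 in CEL-III and 3.53 to 3.79 in NaCl-III. It went against its list: of 9 measured PPAR targets 7 were higher and 2 lower, with a median of 0.15. In LPS rats the Cd36 difference was 0.16 (SE 0.24).

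The list of glucocorticoid targets had the largest positive median of the lists with 5 or more measured genes. It also holds Nr3c1, the gene of the glucocorticoid receptor itself, at 0.08. All 11 measured members were higher in CEL-III, with a median of 0.38, beside 54.7% of all genes higher, 45.3% lower and a median of 0.02. None passed after adjustment, 2 had a p under 0.05 (background 4.22%), and 3 had no overlap between groups (background 2.16%). Per1, a clock gene that is also induced by glucocorticoids, read 5.54, 6.17, 5.54, 5.37 and 5.60 in CEL-III against 5.12, 4.70 and 4.81 in NaCl-III (difference 0.77, SE 0.23). Zbtb16, a zinc finger repressor, read 6.08, 5.63, 5.51, 5.90 and 5.37 against 4.54, 4.93 and 4.64 (difference 0.99, SE 0.46). Neither gene overlapped between the groups. The same was seen for Fkbp5, the steroid receptor co-chaperone, named after its values were seen, at 6.09, 6.00, 6.51, 6.28 and 5.92 in CEL-III and 5.52, 5.84 and 5.67 in NaCl-III (difference 0.48, SE 0.35). Pdk4 differed by 0.72 (SE 0.50) and Errfi1 by 0.58 (SE 0.34), both with overlap, and the other 6 members (Mt2A, Ddit4, Dusp1, Sult1a1, Klf9 and Nr3c1) by 0.08 to 0.38.

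The level of the list in single arrays, taken as the median over its genes of the distance from each gene's mean over the 56 arrays, was -0.16, 0.16, -0.10, -0.26 and -0.25 in CEL-III and -0.68, -0.42 and -0.59 in NaCl-III. NaCl-III was also low against the untouched rats: the list's median was -0.30 for NaCl-III minus CNT and 0.19 for CEL-III minus CNT. NaCl-III had the lowest mean of the 13 groups for Per1 (4.88 ± 0.22, n = 3), Per2 (4.59 ± 0.20), Crh (3.70 ± 0.12) and Fkbp5 (5.68 ± 0.16). CEL-III ranked eighth from the lowest for Per1 (5.64 ± 0.30, n = 5) and the thirteenth, which is the highest, for Per2 (5.17 ± 0.26). Neighbours in these orders did not differ beyond their spread. Next to NaCl-III for Per1 was SHAM-III (5.02 ± 0.24, n = 4), and next to CEL-III for Per2 was VAGX-I (5.09 ± 0.34, n = 5). After LPS the list had a median of -0.13 for CEL-I minus NaCl-I, with 4 of 11 genes higher. For Per1 the difference there was -0.38 (SE 0.21), and the change between the challenges was -1.16 (SE 0.31, adjusted p = 0.999 in limma).

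**Figure D3:**
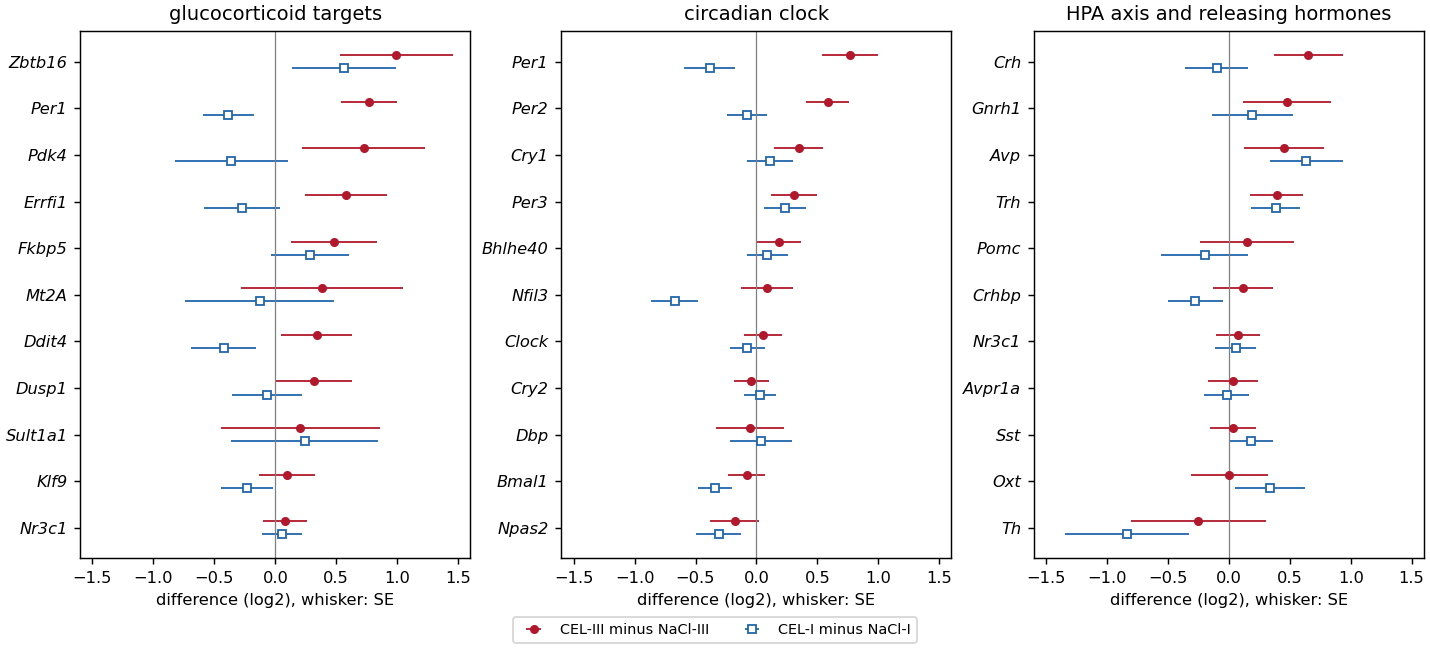
Difference in log2 intensity between celecoxib and saline pretreatment, with its SE, for each measured gene of 3 lists, in rats without LPS (CEL-III minus NaCl-III, filled circles) and with LPS (CEL-I minus NaCl-I, open squares). All 11 members of the glucocorticoid list, which includes the receptor gene Nr3c1, lie above 0 without LPS and 4 of 11 do with LPS.

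Of the 11 measured clock genes 7 were higher, with a median of 0.09, which ran between 0.02 and 0.18 when each array was left out in turn. Per2, the partner of Per1 in the repressor arm of the clock, read 5.04, 5.20, 5.30, 4.81 and 5.50 in CEL-III against 4.78, 4.59 and 4.39 in NaCl-III (difference 0.59, SE 0.18). Cry1 (0.35, SE 0.20) and Per3 (0.31, SE 0.19) had wider intervals, and the activator genes did not share the sign, with Clock at 0.05 and Bmal1 at -0.08. The sources used here give no time of day.

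The list of stress axis and releasing hormone genes leaned the same way at smaller size. It also holds Gnrh1, Trh, Sst and Th, which are not hormone genes of the stress axis, and receptor genes. Nr3c1 is counted in the glucocorticoid list too. Of 11 measured genes, 10 were higher and 1 lower, with a median of 0.12, beside 54.7% of all genes higher. Leaving out each array in turn, this median ran between 0.04 and 0.28. Some of the higher ones were close to no difference, with Sst and Avpr1a at 0.03 and Nr3c1 at 0.08. Crh, whose product releases corticotropin from the pituitary, read 4.43, 4.46, 4.40, 4.79 and 3.67 in CEL-III against 3.69, 3.82 and 3.58 in NaCl-III (difference 0.65, SE 0.28). CEL-III array 30 lay within the saline range and the other 4 above it. Avp differed by 0.45 (SE 0.33), Trh by 0.39 (SE 0.22), Pomc by 0.15 (SE 0.39) and Oxt by 0.01 (SE 0.31). Without NaCl-III array 19 the Avp difference was 0.191. In LPS rats the Crh difference was -0.10 (SE 0.26).

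**Figure D4:**
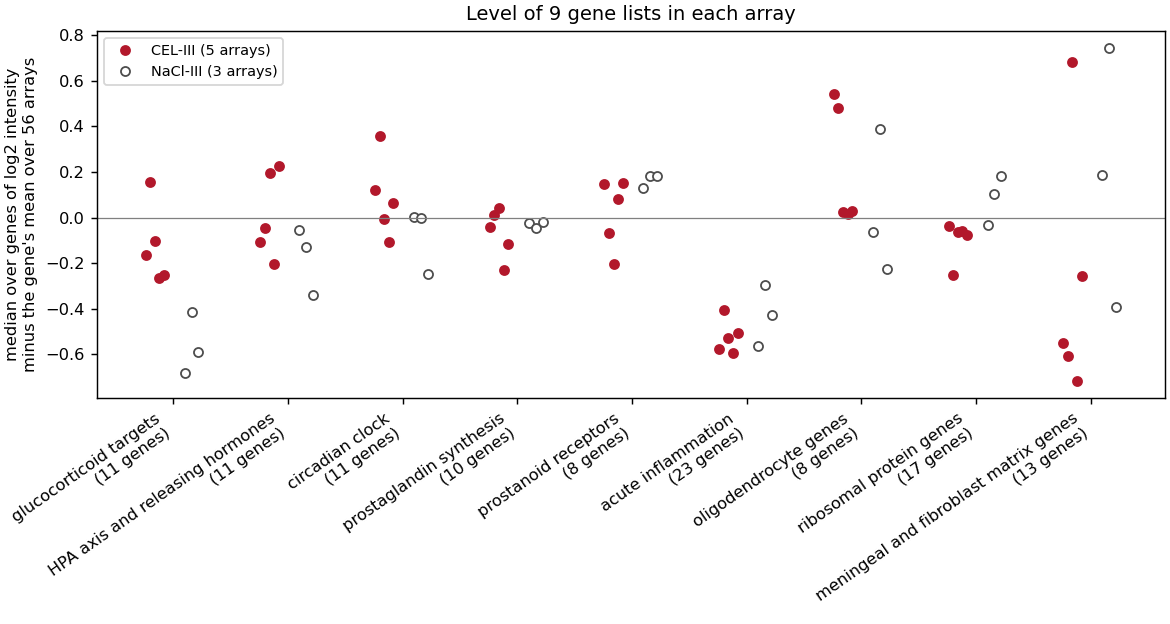
Level of 9 gene lists in each of the 5 CEL-III arrays (filled) and 3 NaCl-III arrays (open), as the median over a list's genes of log2 intensity minus the gene's mean over the 56 arrays. The groups do not overlap for glucocorticoid targets (-0.26 to 0.16 in CEL-III, -0.68 to -0.42 in NaCl-III). For ribosomal protein genes (-0.25 to -0.04 and -0.03 to 0.18) they all but touch, at -0.0385 and -0.0318. The meningeal genes spread as widely within each group as between them. The 9 lists were picked from 49, so the figure does not show how often lists separate.

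The levels of the inflammatory gene lists overlapped between the groups. Of 23 measured genes of acute inflammation 9 were higher and 14 lower (median -0.04), and of 13 interferon-response genes 6 were higher and 7 lower (median -0.08), none with a p under 0.05. Single genes without overlap were Nfkbia (difference 0.60, SE 0.35), Irf7 (0.30, SE 0.38) and, lower in CEL-III, Selp (-0.57, SE 0.50). That is 1 of 23 acute inflammation genes in each direction and 1 of 13 interferon genes higher. Of all single-symbol genes, 2.16% lay above and 1.31% below without overlap. The 16 immediate early genes had a median of 0.06, with Fos at 0.20 (SE 0.34). The level of the interferon list was -1.56 to -0.91 in CEL-III and -1.35 to -1.04 in NaCl-III.

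Ribosomal protein genes were lower in CEL-III for 13 of 17 measured members, with a median of -0.22, while 4 were higher. Rpl7 read 8.74, 7.78, 8.55, 8.44 and 8.06 in CEL-III against 8.63, 9.43 and 9.03 in NaCl-III (difference -0.71, SE 0.23). Rpl19 read 8.62, 8.58, 8.55, 8.58 and 8.79 against 9.03, 9.36 and 9.07 with no overlap (difference -0.53, SE 0.19). Rpl35 differed by -0.33 and Rps15 by -0.40. Under LPS the list's median was -0.01, with 7 of 17 higher. Of 18 respiratory chain genes 14 were lower with a median of -0.06, among them Ndufa4 (-0.35, SE 0.13) and Cox7b (-0.31, SE 0.14). Ribosomal protein genes have many near-identical pseudogene copies, which probes of this kind cannot always separate.

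Meningeal and fibroblast matrix genes had the lowest median of the lists with 5 or more genes, and their levels differed within each group as well as between groups. All 13 measured members were lower in CEL-III, with a median of -0.46, and all 13 were higher in CEL-I than in NaCl-I, with a median of 0.46. The list's level was -0.55, -0.61, 0.68, -0.72 and -0.26 in CEL-III and 0.19, 0.74 and -0.39 in NaCl-III, so CEL-III array 28 stood with the higher saline arrays. Without NaCl-III array 48 the median was -0.80, and without NaCl-III array 20 it was -0.21. Slc13a4, a sulfate transporter of meninges and choroid plexus, read 4.52, 4.67, 5.90, 3.69 and 4.92 in CEL-III against 6.05, 6.67 and 5.15 in NaCl-III (difference -1.22, SE 0.49). Dcn differed by -0.46 (SE 0.37) and Slc22a6 by -0.69 (SE 0.45). The Ptgds values followed the same arrays, with 10.65 in CEL-III array 28 and 11.19 in NaCl-III array 20, and the part of meningeal tissue in that difference was not tested.

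Among the other cell type lists, oligodendrocyte genes had the median farthest from that of all genes. The 12 endothelial and barrier genes had a median of 0.08, among them the glucose transporter Slc2a1 at 7.84, 8.40, 7.93, 7.68 and 7.85 in CEL-III and 7.34, 7.52 and 7.36 in NaCl-III (difference 0.54, SE 0.21), which did not overlap. Astrocyte genes stood at 0.10 with all 6 measured members higher, and at 0.0084 to 0.156 when each array was left out in turn. Their levels overlapped, at -0.12 to 0.35 in CEL-III and -0.19 to 0.11 in NaCl-III. Oligodendrocyte genes stood at 0.26 with 6 of 8 higher and oligodendrocyte precursor genes at 0.19. Neuron genes stood at 0.04, microglia genes at -0.01, tanycyte genes at -0.05 and choroid plexus genes at 0.05. Oligodendrocyte levels were highest in CEL-III arrays 26 and 27 (0.54 and 0.48), against -0.22 to 0.39 in NaCl-III. The median difference was 0.403 without NaCl-III array 20 and 0.123 without NaCl-III array 48. The 4 measured thalamus genes were also highest in CEL-III arrays 26 and 27 (0.55 and 0.58), against -0.41 to 0.46 in NaCl-III. Genes of cortex, hippocampus and striatum had a median difference of 0.15 with 8 of 9 higher. The part of dissection in these differences was not tested. Red blood cell genes stood at -0.13 and blood myeloid genes at -0.09. The 13 cold and heat shock genes had a median of 0.10, with the chaperone gene Dnajb1 at 0.41 (SE 0.20) and the cold-induced Rbm3 at 0.35 (SE 0.28).

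SC-560, a selective COX-1 inhibitor, and indometacin, which inhibits both enzymes, were given for the same number of days. Celecoxib and SC-560 are both diarylpyrazoles with a trifluoromethyl group, and indometacin is an indole acetic acid. The sources used here give no doses, so these values stand side by side without known matching of dose. CEL-III against SC560-III gave 0 calls (0.00%), with 1791 clusters (4.88%) at an unadjusted p under 0.05 and a smallest adjusted p of 0.316. CEL-III against INDOM-III gave 0 calls (0.00%), with 3517 (9.59%) at an unadjusted p under 0.05 and a smallest adjusted p of 0.11. All INDOM-III arrays are numbered over 48 and all CEL-III arrays under 41, so drug and array number cannot be told apart there. CEL-III against CNT gave 0 calls (1740, 4.74%) and NaCl-III against CNT 0 calls (1101, 3.00%). Mmp14 in CEL-III stood at -1.10 from SC560-III (SE 0.26, adjusted p = 0.505 in limma), -0.71 from INDOM-III and -0.91 from CNT. Per1 stood at 0.60 from SC560-III, 0.61 from INDOM-III and 0.54 from CNT. For some other named genes NaCl-III was the group that stood away from CNT. Lmo1, H2ab3 and Alox5 had -0.04, -0.04 and -0.08 for CEL-III minus CNT, but 0.62, 0.64 and 0.62 for NaCl-III minus CNT. Qprt had 0.26 and -0.66, and stood at 0.03 from INDOM-III.

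Among the arrays without LPS, SC560-III array 36 and CNT array 4 stood apart in inflammatory genes, with interferon-list levels of 2.38 and 1.92, while the other arrays of those groups reached at most -0.48 and -0.91. Without them the interferon median of CEL-III was -0.19 from SC560-III and -0.06 from CNT, in place of -0.90 and -0.73. Fabp7 stood at -0.76 from SC560-III and -0.80 from CNT without these arrays. The glucocorticoid list moved to 0.38 from SC560-III and 0.27 from CNT without them, in place of 0.12 and 0.19. From INDOM-III its median was -0.08, with 4 of 11 genes higher in CEL-III. No call was gained in either comparison by leaving them out, with smallest adjusted p-values of 0.19 and 0.0873 in limma.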

How the data were processed

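RNA of the medial hypothalamus was hybridised to Affymetrix Rat Gene 2.1 ST arrays, 1 per rat. Per the labels, the authors processed the arrays with RMA in Affymetrix Expression Console (version not stated), and they deposited linear intensities, 1.749 to 7820 over 36685 transcript clusters and 56 arrays. The methods of the study describe RMA background correction, quantile normalization and median polish on a log2 scale, and log2 of the deposited values, which had been assumed to be on that scale already, was taken here. RMA equalises the arrays' distributions, so a change shared by most transcripts would not be seen. The number of arrays limits the precision.

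Symbols came from the platform annotation: 14824 clusters had 1 symbol, 829 several and 21032 none. A gene was represented by its brightest cluster, giving 14557 genes. limma 3.58.1 (R 4.3.3) was fitted to the 35 arrays of the 8 drug groups as group means, or to all 56 arrays in 13 groups for contrasts with CNT, with Benjamini-Hochberg adjustment over all clusters and a threshold of 0.05. The code was tested on simulated data. Named genes were the 12 higher and 12 lower with the smallest p above the median intensity of all clusters, up to 4 per list with the smallest p, and 14 set genes, of which 13 were measured. The 49 gene lists and the genes were chosen with earlier results of these data known. For 44 lists with 5 or more measured genes, 29 medians lay above 0 and 15 below, 40 of them within 0.2. Alternatives were 9 other fits and each of the 8 arrays left out. Figures used Python 3.11.15 and matplotlib 3.10.9.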

Additional observations from a re-analysis of the deposited data

Results flagged for a closer look

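Chance marks about 1 in 20 groups as having an array far from the rest, and 7 marks were made here among the CEL-III arrays, over 69 genes and 29 lists. Per1 in CEL-III array 27 was 6.17, above the other 4 at 5.37 to 5.60. Ptgir in CEL-III array 29 was 4.66, above the others at 3.04 to 3.50. Prl and Gh1 in CEL-III array 26 were 5.61 and 6.86, above the others at 2.61 to 3.19 and 3.38 to 3.73. Slc22a6 in CEL-III array 28 was 5.35, above the others at 3.75 to 4.12. The level of respiratory chain genes in CEL-III array 26 was 0.14, above the others at -0.03 to 0.00, and that of ribosomal protein genes in CEL-III array 27 was -0.25, below the others at -0.08 to -0.04.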

How the results depend on the processing

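CEL-III against NaCl-III gave 0 calls under all 9 alternative fits and without each of the 8 arrays. At an unadjusted p under 0.05 there were 1350 to 1965 clusters in the fits over all 36685 clusters, and 920 of 18342 where only clusters above the median intensity were tested. Averaged over both challenges, and for the change between them, 0 were called under each alternative, and likewise for CEL-I against NaCl-I and CEL-III against SC560-III. CEL-III against CNT gave 1 call with a variance trend and robust prior and 1 with only clusters above the median intensity. Leaving out single arrays gave 0 to 2 calls for CEL-III against INDOM-III (2 without INDOM-III array 53) and 0 to 2 for NaCl-III against CNT (1 without NaCl-III array 20, 2 without array 48). Of 69 genes, 62 kept their sign under every alternative and none passed. Fits that changed only the variance estimate, the clusters tested or the other groups in the fit could not turn a sign. For Ptgs1, CEL-III minus NaCl-III was -0.00129 with a second quantile normalization, -0.0475 without arrays with a second run number and -0.0362 with array weights. Oxt (-0.0999) and Pomc (-0.0538) also turned without those arrays. With arrays 41 to 56 as a term, Ptger3 was 0.0985 and Ptger4 -0.0285, and CEL-III against INDOM-III could not be fitted. Leaving out each array in turn, the difference ran between -0.0788 and 0.0883 for Ptgs1, -0.0999 and 0.115 for Oxt, -0.26 and 0.124 for Ptger3, -0.129 and 0.393 for Ptger4, -0.0538 and 0.431 for Pomc, -0.0211 and 0.444 for Fos, and -0.0254 and 0.846 for Gh1, whose sign turned without CEL-III array 26. The median of glucocorticoid targets stayed between 0.31 and 0.56. The medians of the lists for radial glia, acute inflammation, interferon response, prostaglandin synthesis, fatty acid-binding proteins, choroid plexus, microglia, neuron and tanycyte genes changed sign without at least 1 of the 8 arrays. Without NaCl-III array 48 the differences of Cry1, Errfi1, Trh and Secisbp2l were 0.184, 0.378, 0.243 and 0.245. No paired analysis was possible because array numbers run on through the series and the groups share no replicate number.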
